A study of Mus musculus with 28 samples.

Results

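The 10 genes described here are those by which brain endothelial cells and the blood-brain barrier are usually recognised: the receptors *Flt1*, *Kdr* and *Tek*, the junction and adhesion genes *Cldn5*, *Cdh5*, *Pecam1* and *Esam*, and the transporters *Slco1a4*, *Abcb1a* and *Slc2a1*. They were listed by name, with earlier results of these data known. All 10 had a row in the table of single cells, and 8 of the 10 had a row in the table of tissue samples, which held 36358 genes. *Cldn5* and *Cdh5* were not analysed here in the tissue. The tissue was the wall of the lateral ventricle, the ependymal zone with the subependymal or subventricular zone (EZ-SEZ/SVZ), of C57BL/6 mice, with 3 samples at 3 weeks and 3 at 18 months. The 22 single cells came from the same region of C57BL/6 mice and were labelled by subpopulation and age as Prom1+ (3 cells at 1 month, 3 at 24 months), Gfap+ (2 and 5) and Dlx2+/Dcx+ (5 and 4). The GEO labels describe every sample, tissue included, as adult neural stem cells and name no animal, so it is not known which samples or cells shared one, and p-values here measure only the spread between these samples.

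Brain capillaries are lined by endothelial cells that seal the gaps between them with tight junctions and carry nutrients across by dedicated transporters, which together make the blood-brain barrier. Vascular endothelial growth factor (VEGF) and angiopoietins act on receptors of these cells to control growth and stability of vessels, and pericytes and astrocyte endfeet surround them. In the SEZ/SVZ, vessels lie close to the neural stem cells and are counted as part of their niche.

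Levels are given as FPKM, fragments per kilobase of transcript relative to sequencing depth, so that levels of different genes can be set side by side per length. Each value is relative to all mapped fragments of its sample. In tissue, fewer endothelial cells and less RNA per endothelial cell cannot be told apart. Differences with age are log2 fold changes, computed on log2(FPKM + 1) as 18 months minus 3 weeks, and for genes of low level they come out too small. All genes were tested with limma, and a gene was called where its unadjusted p was under 0.05 and its log2 fold change beyond 1 in either direction, the limits of the study. By the steps between low values the tissue samples held between 18.4 and 22.2 × 1000000 fragments, and pairs of samples of the same age correlated over genes at r between 0.889 and 0.916, against 0.861 to 0.894 between ages.

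None of the 8 endothelial and barrier genes measured in the tissue was called. Of all 12287 tested genes 3.90% were (1.83% higher and 2.07% lower at 18 months). At that share, no call among 8 genes is an ordinary outcome. All 8 passed the filter on low values. Their log2 fold changes ran from -0.38 to 0.56 with a median of -0.11, 5 of them negative and 3 positive, and the median of all tested genes was 0.089. With single samples left out, the median of the 8 ran from -0.17, without the third sample of 3 weeks, to -0.0074, without the first, and it was -0.044 without the second of 18 months. One of the 8, *Tek*, had an unadjusted p under 0.05 (24.3% of all tested genes did), and the same gene was the only one whose samples did not overlap between the ages (33.1% of all tested genes). No adjusted p of the 8 was under 0.05 (4.92% of all tested genes). For 6 of the 8 the 95% interval of the difference lay within 1 in either direction on the log2(FPKM + 1) scale, with bounds from -0.88 to 0.83, and the intervals of *Flt1* and *Slc2a1* reached past it. A 2-fold change of FPKM itself is smaller on this scale, so that a halving of *Kdr* (-0.48) or *Tek* (-0.51) would not be called. Measured from the mean of 3 weeks, a 2-fold change lay outside the interval in both directions for *Pecam1* and *Kdr*. A halving lay within the interval of *Tek*, *Esam* and *Slco1a4*, and a doubling within that of *Flt1*, *Abcb1a* and *Slc2a1*.

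**Figure D1:**
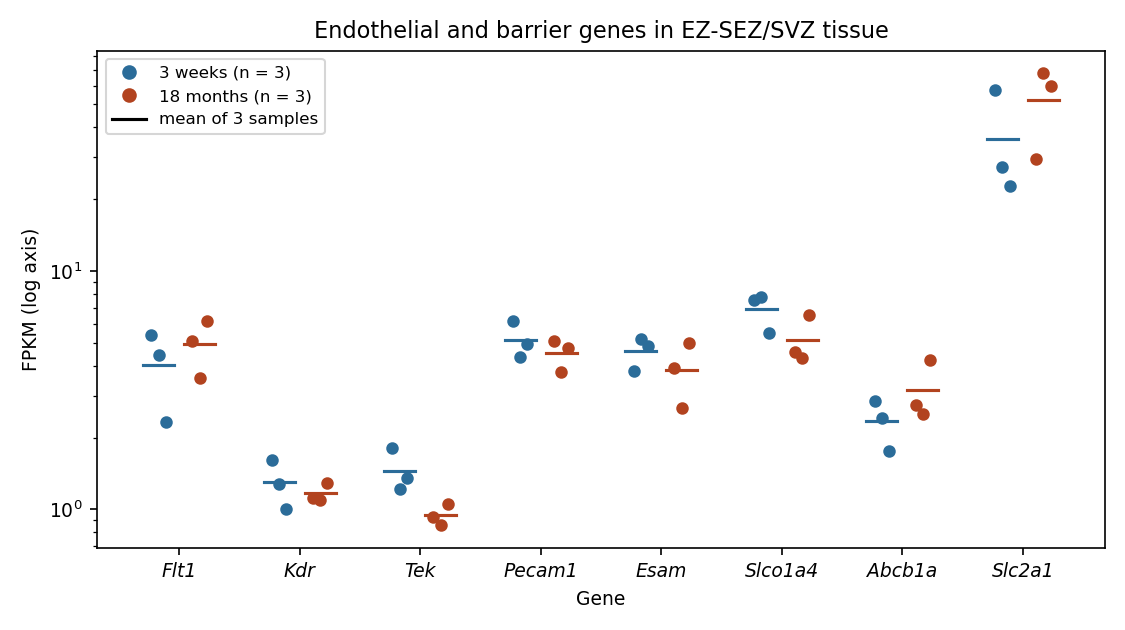
Level of the 8 genes in each EZ-SEZ/SVZ tissue sample in FPKM on a log axis, with 3 samples of 3 weeks in blue, 3 of 18 months in orange, and a line at each mean. The ages overlap for every gene but *Tek*, and *Slc2a1* lies far above the rest, between 22.7 and 67.5 FPKM.

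In order of their mean over the 6 samples, *Slc2a1* was highest with 44.1 FPKM. *Slco1a4* (6.04), *Pecam1* (4.84), *Flt1* (4.49), *Esam* (4.24) and *Abcb1a* (2.75) followed, and *Kdr* (1.23) and *Tek* (1.20) were lowest. Of neighbours in this order, only *Slc2a1* and *Slco1a4*, and *Abcb1a* and *Kdr*, had ranges that did not overlap. *Esam* was nevertheless above *Abcb1a* in all 6 samples.

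Among the VEGF receptors, *Flt1* encodes VEGFR1, which binds VEGF tightly and also acts as a decoy for it. The gene lies on chromosome 5 (GRCm38, 147561604 to 147726011, minus strand). Its level was 5.08, 3.57 and 6.15 FPKM at 18 months and 5.39, 4.42 and 2.33 FPKM at 3 weeks. The lowest sample was the third of 3 weeks, and the ages overlapped. Its log2 fold change was 0.26 ± 0.30 (SE, n = 3 per age; limma adjusted p = 0.634), and without that sample it was -0.013. *Kdr*, on the same chromosome (75932827 to 75978458, minus strand), encodes VEGFR2, the main signalling receptor of VEGF. It stood at 1.12, 1.10 and 1.29 FPKM at 18 months and at 1.61, 1.28 and 1.00 FPKM at 3 weeks. The samples of 18 months lay within the range of those of 3 weeks. The log2 fold change was -0.077 (95% interval -0.40 to 0.25; limma adjusted p = 0.760), and without the first sample of 3 weeks it was 0.020.

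*Tek* encodes TIE2, the receptor of the angiopoietins, which keeps vessels quiescent. It lies on chromosome 4 (94739289 to 94874976, plus strand). Its level was 0.925, 0.857 and 1.05 FPKM at 18 months and 1.80, 1.21 and 1.35 FPKM at 3 weeks, so that every sample of 18 months was below every sample of 3 weeks. The mean of 18 months was 64.9% of that of 3 weeks. The log2 fold change was -0.33 (95% interval -0.65 to -0.013), with a limma p of 0.0436 and an adjusted p of 0.191, and it did not reach the limit on fold change. Over the alternatives of processing and the samples left out in turn, the unadjusted limma p of *Tek* ran from 0.0163 to 0.117.

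*Pecam1* encodes CD31, an adhesion molecule of the borders between endothelial cells, and lies on chromosome 11 (106654217 to 106750628, minus strand). Its values of 5.09, 3.75 and 4.75 FPKM at 18 months overlapped the 6.17, 4.36 and 4.92 FPKM at 3 weeks, with the lowest sample of 18 months below and the highest of 3 weeks above all samples of the other age. The log2 fold change of -0.15 ± 0.17 (SE) was within the spread between samples (limma adjusted p = 0.626). *Esam*, an adhesion molecule of endothelial tight junctions, lies on chromosome 9 (37528078 to 37538319, plus strand). It was at 3.93, 2.66 and 4.97 FPKM at 18 months and at 3.80, 5.20 and 4.84 FPKM at 3 weeks. The ages overlapped, and the interval of the log2 fold change ran from -0.77 to 0.31 (limma adjusted p = 0.562).

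Of the transporters, *Slco1a4* encodes an organic anion transporter of brain capillaries and lies on chromosome 6 (141805440 to 141856199, minus strand). It was at 4.58, 4.30 and 6.53 FPKM at 18 months and at 7.57, 7.81 and 5.47 FPKM at 3 weeks. Only the third sample of each age fell in the range where the ages overlapped. This left a log2 fold change of -0.38 ± 0.20 (SE; limma adjusted p = 0.319). *Abcb1a*, one of the 2 mouse genes of the drug efflux pump P-glycoprotein, lies on chromosome 5 (8660077 to 8748575, plus strand). Its level was 2.74, 2.51 and 4.21 FPKM at 18 months and 2.86, 2.40 and 1.75 FPKM at 3 weeks, with a log2 fold change of 0.31 ± 0.21 (SE; limma adjusted p = 0.431). Reads may be shared with its close copy *Abcb1b*, and how the counting split them is not stated.

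*Slc2a1* encodes GLUT1, the glucose transporter of the barrier, which glial cells also make. It lies on chromosome 4 (119108711 to 119137983, plus strand). Its level was 29.6, 67.5 and 59.7 FPKM at 18 months and 57.6, 27.4 and 22.7 FPKM at 3 weeks. Each age had samples at the high and at the low end, and the first sample of 3 weeks stood beside the 2 higher ones of 18 months. The mean was 52.3 ± 20.0 FPKM at 18 months and 35.9 ± 18.9 FPKM at 3 weeks (SD, n = 3 each). Between them the log2 fold change was 0.56 with a 95% interval from -0.56 to 1.69 (limma adjusted p = 0.498), so a doubling at 18 months lies within the interval. With single samples left out in turn it ran from 0.30, without the third sample of 3 weeks, to 0.95, without the first of 3 weeks.

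**Figure D2:**
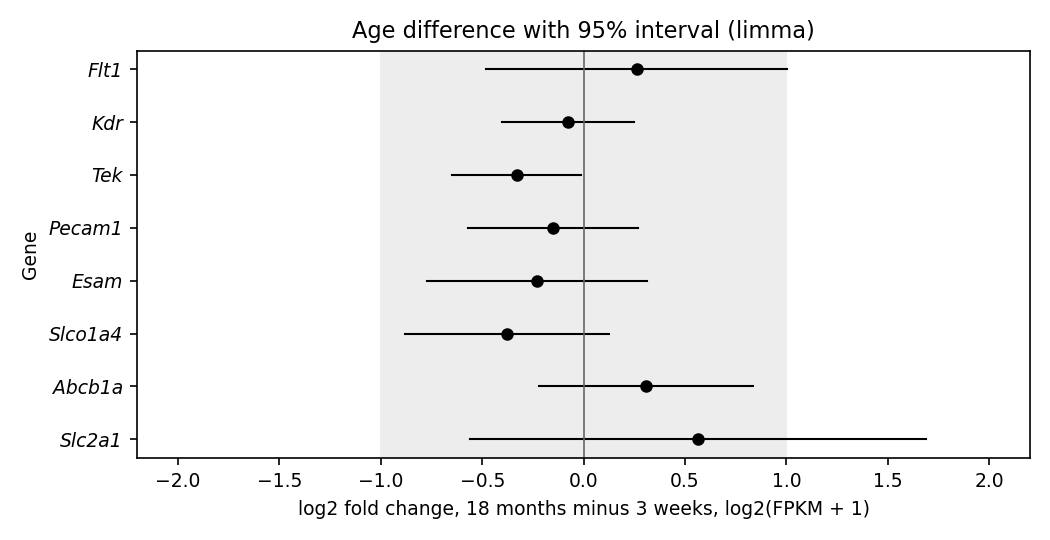
Age difference of the 8 genes in tissue as log2 fold change of log2(FPKM + 1) values, 18 months minus 3 weeks, with the 95% interval from limma as a line and the range within 1 of no difference shaded. All intervals but that of *Tek* (-0.65 to -0.013) hold 0, and those of *Flt1* and *Slc2a1* pass beyond the shaded range.

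Around these genes, 114 other genes of the vessel wall and barrier were listed by pathway. Of these 91 had a tissue row and 73 passed the filter. Of the 73 genes 3 were called (4.11%, near the 3.90% of all genes), and all 3 were lower at 18 months. Of all tested genes 2.07% were called lower. The 3 were *Mfsd2a*, *Cldn12* and *Cav1*. At a pseudocount of 0.1 or with scaling to 1000000, *Cd93*, *Slc38a5* and *Lef1* were called lower as well. Calls over all genes also rose there, from 479 to 765 and 695. The median log2 fold change of the 73 genes was -0.12, 42 lower and 31 higher, against 0.089 over all tested genes. By adjusted p alone, 6 of the 73 (8.22%) were under 0.05, all lower at 18 months, against 4.92% of all tested genes in either direction and 2.42% lower.

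*Mfsd2a*, on chromosome 4 (122946850 to 122961188, minus strand), encodes the lipid transporter of brain endothelium that carries docosahexaenoic acid and holds down transcytosis. It fell from 27.0, 27.1 and 19.5 FPKM at 3 weeks to 8.92, 8.67 and 10.4 FPKM at 18 months. The ages stood far apart. The log2 fold change was -1.29 ± 0.17 (SE; limma adjusted p = 0.0173), and with each sample left out in turn it stayed between -1.44 and -1.22. *Cldn12*, a claudin that is not restricted to endothelium, lies on chromosome 5 (5489537 to 5514958, minus strand). Its level was 6.79, 14.8 and 11.9 FPKM at 3 weeks and 0.168, 0.210 and 2.28 FPKM at 18 months. It fell by 2.81 on the log2 scale (SE 0.49; limma adjusted p = 0.0386), and the third sample of 18 months was well above the other two. *Cav1*, the coat protein of caveolae, lies on chromosome 6 (17306335 to 17341452, plus strand) and had 6.91, 5.64 and 6.87 FPKM at 3 weeks. At 18 months it had 2.71, 3.98 and 0.683 FPKM, the third sample being lowest. It fell by 1.24 on the log2 scale (SE 0.41) by the unadjusted limits, with a limma adjusted p of 0.145. Its log2 fold change was -0.79 without the third sample of 18 months, short of the limit on fold change. Without the first or the third sample of 3 weeks the unadjusted p was above 0.05, at log2 fold changes of -1.20.

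**Figure D3:**
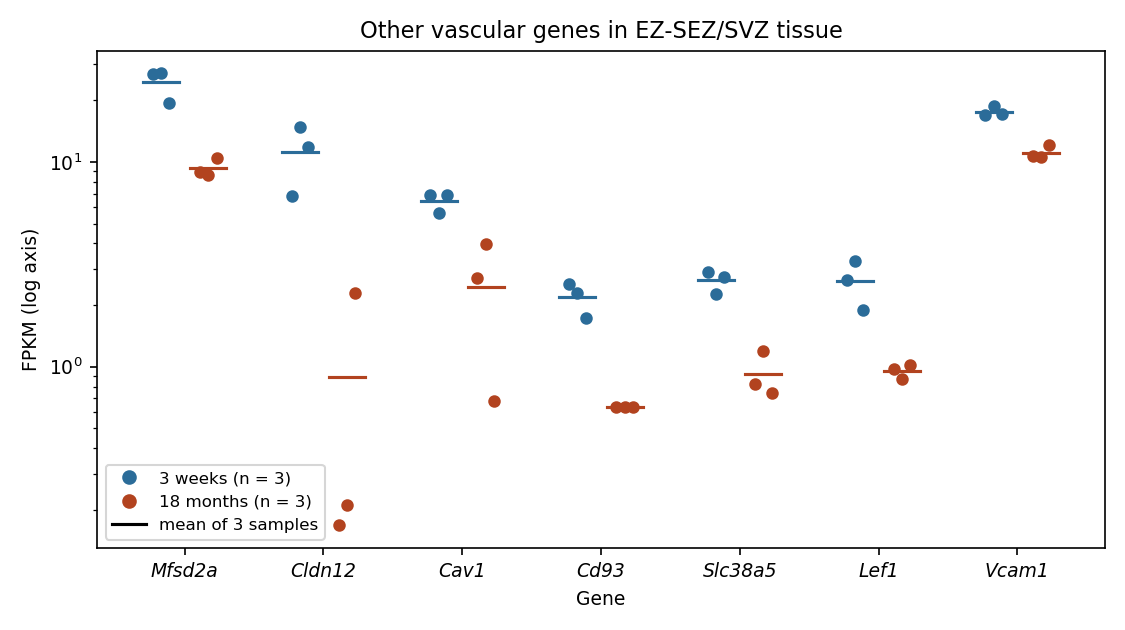
Level of 7 other vascular genes in each tissue sample in FPKM on a log axis, with 3 samples per age and a line at each mean. For each of the 7 genes all 3 samples of 18 months (orange) lie below all 3 of 3 weeks (blue), and *Cldn12* and *Cav1* vary most among the samples of 18 months.

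Another 4 genes had an adjusted limma p under 0.05 with a log2 fold change short of 1. *Cd93*, a surface receptor of endothelial cells in growing vessels, was at 0.639, 0.636 and 0.639 FPKM at 18 months and at 2.52, 2.29 and 1.74 FPKM at 3 weeks (log2 fold change -0.95, adjusted p = 0.0197). *Slc38a5*, an amino acid transporter of capillaries and veins, was at 0.820, 1.19 and 0.746 FPKM against 2.91, 2.26 and 2.76 FPKM (-0.93, limma adjusted p = 0.0268). *Lef1*, a transcription factor of Wnt and beta-catenin signalling, by which the barrier is induced, was at 0.976, 0.869 and 1.02 FPKM against 2.64, 3.29 and 1.90 FPKM (-0.87, limma adjusted p = 0.0488). All 3 are low genes, and at a pseudocount of 0.1 their log2 fold changes were -1.61, -1.45 and -1.33. With scaling to 1000000 they were -1.36, -1.25 and -1.16. In the 22 cells *Lef1* was above 1 FPKM in 8, up to 126 FPKM in a Prom1+ cell, *Slc38a5* in 1 and *Cd93* in 0. *Vcam1*, an adhesion molecule for leukocytes that neural stem cells and astrocytes also make, was at 10.7, 10.6 and 12.1 FPKM against 17.01, 18.7 and 17.08 FPKM (-0.62, limma adjusted p = 0.0396).

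By list, the VEGF ligands, receptors and co-receptors had none of 5 tested genes called. The VEGF gene *Vegfa* itself had means of 11.4 FPKM at both ages (log2 fold change -0.033; limma adjusted p = 0.944). Furthest from 0 there were the co-receptor *Nrp2*, with a log2 fold change of 0.41 (limma adjusted p = 0.117), and *Vegfb*, with -0.32 (adjusted p = 0.414). In angiopoietin and Tie signalling only *Tek* and *Tie1*, the related orphan receptor, were tested. *Tie1* was at 1.17, 0.984 and 0.921 FPKM at 18 months and at 2.26, 1.97 and 1.47 FPKM at 3 weeks. As for *Tek*, the ages did not overlap, and the log2 fold change of *Tie1* was -0.51 (limma adjusted p = 0.105).

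Among 10 tested adhesion and surface genes none was called, though *Cd93* was at a pseudocount of 0.1, with scaling to 1000000 and with quantile normalization. Next to *Cd93* the furthest was *Ctnnd1*, a catenin that binds cadherins at junctions (log2 fold change -0.65, limma adjusted p = 0.178). Of 7 tight junction genes *Cldn12* was called, of 17 barrier transporters and receptors *Mfsd2a*, and of 6 caveolae and transcytosis genes *Cav1* and again *Mfsd2a*. The median log2 fold change of the transporters, *Slc2a1*, *Abcb1a* and *Slco1a4* included, was 0.064, with 10 of 17 positive. None of 11 genes of Wnt and beta-catenin signalling was called, though *Lef1* was at a pseudocount of 0.1 or with scaling to 1000000. None of 9 endothelial transcription factors, 7 Notch genes, 4 arterial, 6 venous or 4 inflammatory endothelial genes was called either. Of the venous genes, *Slc38a5* was called in both alternatives named for *Lef1*. Over these lists together *Ackr1*, a chemokine-binding receptor of venules, was the furthest above 0 (log2 fold change 0.98, limma adjusted p = 0.176). Its samples were at 46.8, 40.6 and 32.5 FPKM at 18 months and at 12.1, 32.7 and 18.6 FPKM at 3 weeks, and they overlapped narrowly. The Norrie disease ligand *Ndp* (0.61), the arterial genes *Gkn3* (0.42) and *Efnb2* (0.25), the receptors *Notch1* (-0.46) and *Notch4* (-0.15), and the transcription factors *Foxq1* (-0.44) and *Sox18* (-0.43) were the others named by size, with log2 fold changes in parentheses and no adjusted limma p under 0.05.

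**Figure D4:**
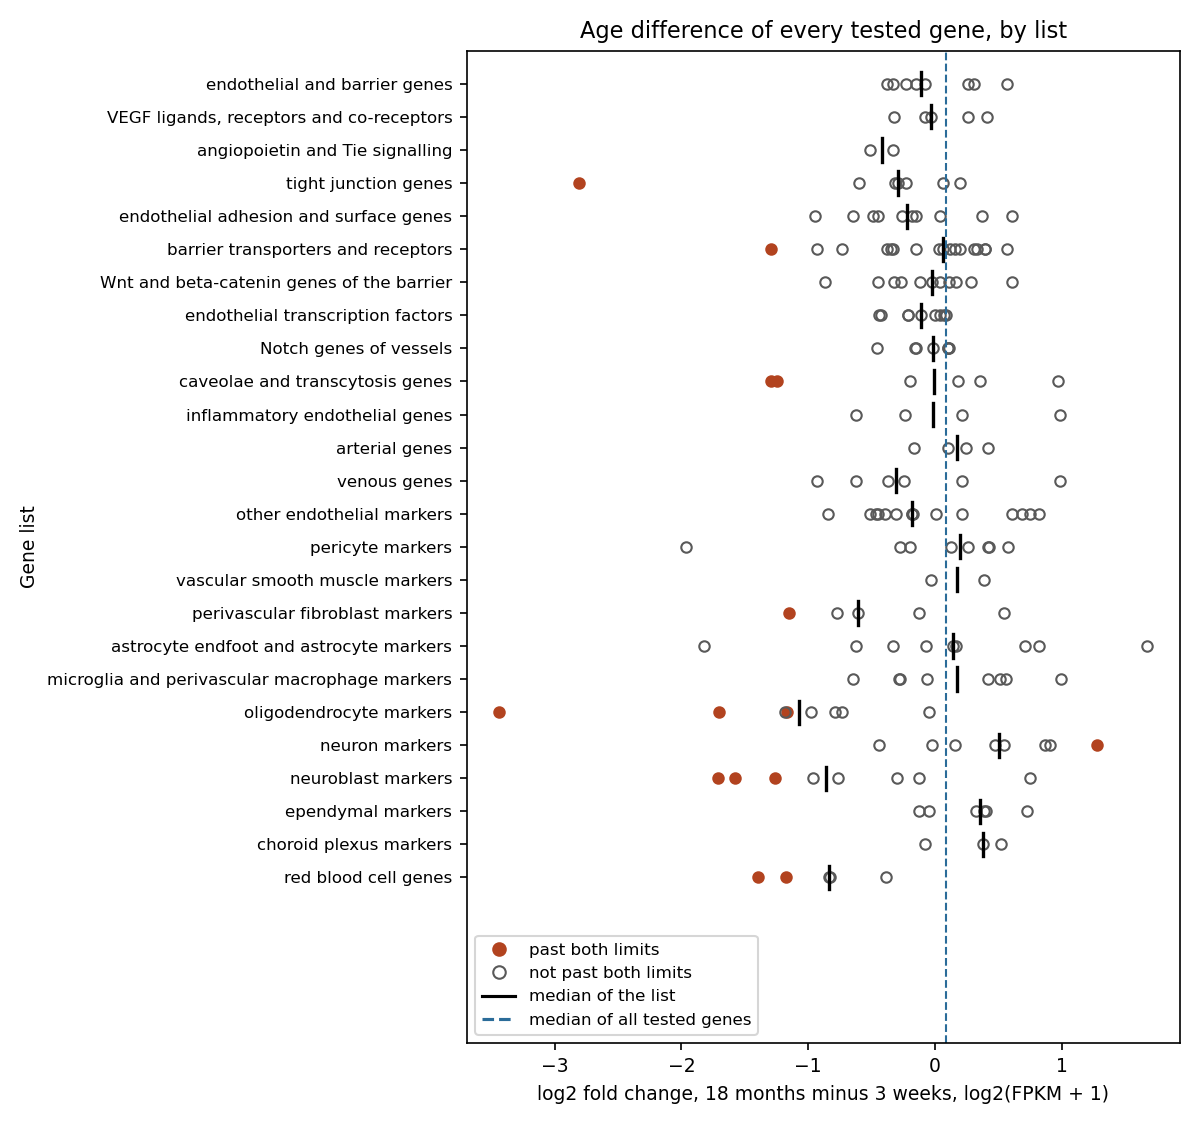
Age difference in tissue of every tested gene of each list, as log2 fold change on the log2(FPKM + 1) scale, 18 months minus 3 weeks. Filled points passed both limits, black ticks are list medians, and the dashed line is the median of all tested genes (0.089); the endothelial and barrier genes (top) and most vascular lists lie around 0, while oligodendrocyte, neuroblast and red blood cell genes lie to the left.

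Markers of the cells that share the tissue moved with age to unequal extents. Other endothelial markers had 0 of 15 tested genes called, with a median log2 fold change of -0.18, and their summed level was 222 to 238 FPKM at 18 months and 174 to 241 FPKM at 3 weeks. One of them, *Pltp*, a phospholipid transfer protein, had an adjusted limma p under 0.05, at a log2 fold change of 0.69 (adjusted p = 0.0350). Pericyte markers had 0 of 8 called and 3 of 8 not overlapping between ages, with log2 fold changes from -1.96 to 0.58. Their summed levels were 60.7 to 78.3 FPKM at 18 months and 66.0 to 68.3 FPKM at 3 weeks. None was called among 2 vascular smooth muscle, 9 astrocyte, 8 microglia and macrophage, 6 ependymal or 3 choroid plexus markers. Samples did not overlap between ages for 6 of the 8 microglia and macrophage markers, against 33.1% of all tested genes. The same held for 4 of the 6 ependymal, 1 of the 9 astrocyte and no vascular smooth muscle or choroid plexus markers. Log2 fold changes ran from -0.64 to 0.99 in microglia and macrophage markers (4 positive, 4 negative) and from -1.82 to 1.67 in astrocyte markers. Ependymal markers summed to 189 to 223 FPKM at 18 months and 144 to 178 FPKM at 3 weeks. In contrast, all 8 tested oligodendrocyte markers had negative log2 fold changes (median -1.07), 3 of them (*Mbp*, *Mog* and *Cldn11*) were called lower, and *Mobp* (-0.79) and *Cnp* (-0.74) had an adjusted limma p under 0.05 short of the limit on fold change. The list summed to 3346 to 3980 FPKM at 18 months against 18552 to 20422 FPKM at 3 weeks. Its single markers ran from -3.44 to -0.048 on the log2 scale, so the sum does not give the fall of a typical marker. Of 8 neuroblast markers 7 were negative, 3 (*Dlx1*, *Dlx2* and *Dlx6os1*) were called lower, and *Dcx* (-0.96, limma adjusted p = 0.0268) was short of the limit on fold change. Of 5 perivascular fibroblast markers 4 were negative, *Igf2* was called lower, and *Col1a2* (-0.77, limma adjusted p = 0.0325) was short of that limit. Of 8 neuron markers 6 were positive (median log2 fold change 0.51), and *Ppp1r1b* was called higher. The neuron list summed to 2247 to 2798 FPKM at 18 months against 1214 to 1854 FPKM at 3 weeks. Among the marker genes called, *Dlx6os1* (limma adjusted p = 0.118), *Igf2* (adjusted p = 0.128) and *Ppp1r1b* (adjusted p = 0.10) were called by unadjusted p only. The red blood cell genes *Hba-a1* and *Hbb-bt* fell, and the 5 genes of that list summed to 289 to 528 FPKM at 18 months and 700 to 834 FPKM at 3 weeks. The part of red blood cell, oligodendrocyte and other cell content in the values of the endothelial genes was not tested.

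The 22 cells served to ask whether the 10 genes were seen outside endothelium. The genes that name the subpopulations are given first. The paper picked the 22 cells by qPCR for markers such as these, so their values here describe the labels and do not test them. *Gfap* was above 1 FPKM in 7 of 7 Gfap+ cells (48.7 to 194 FPKM), and in 0 of the other cells. *Prom1* was above 1 FPKM in 6 of 6 Prom1+ cells, and also in 2 of 9 Dlx2+/Dcx+ cells, where it reached 6.29 FPKM. *Dlx2* and *Dcx* were above 1 FPKM in 9 of 9 Dlx2+/Dcx+ cells, and *Dlx2* also in 2 of 6 Prom1+ and 7 of 7 Gfap+ cells, at no more than 2.79 FPKM. The Gfap+ cells also carried oligodendrocyte genes at high levels. Of 9 oligodendrocyte markers, 8 were between 792 and 25026 FPKM in every Gfap+ cell, and *Opalin* was listed at 0 in 5 of 7. The other cells were not free of these markers, which reached 213 FPKM there (*Mobp*), and 53.1% of their values in Dlx2+/Dcx+ and 35.2% in Prom1+ cells were above 1 FPKM, against 92.1% in Gfap+ cells. *Mag*, plotted as an example, was between 924 and 4960 FPKM in Gfap+ cells and at most 1.97 FPKM elsewhere. A value of 0 in this table may be a failed estimate, since the cytoskeletal gene *Actb* was listed at 0 in all 6 Prom1+ cells. Cells were not tested against each other, since each subpopulation at each age counts as 1 sample.

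In the table of cells most values of the endothelial genes were listed at 0, apart from those of *Slc2a1*. Of the 10 genes 7 were listed at 0 in all 22 cells, *Cldn5*, *Pecam1*, *Kdr*, *Tek*, *Esam*, *Slco1a4* and *Abcb1a*. Without *Slc2a1*, 190 of 198 values were listed at 0 and 1 was above 1 FPKM. That value was 4.47 FPKM of *Cdh5*, which encodes VE-cadherin of endothelial adherens junctions, in a Prom1+ cell of 1 month. *Flt1* was above 0 in a few cells and at most 0.184 FPKM. These zeros do not show that the genes were silent in the cells, least of all in the Prom1+ cells, where *Actb* was also listed at 0.

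*Slc2a1* was above 1 FPKM in 10 of 22 cells. In the Gfap+ cells of 24 months it was at 738, 405, 684, 631 and 257 FPKM. In the pair of Gfap+ cells of 1 month it was at 0 and 273 FPKM, and the cell at 0 was the one with the fewest mapped reads. All cells above 100 FPKM were thus Gfap+ cells, the cells with high oligodendrocyte genes. Of the Prom1+ cells 2 of 6 were above 1 FPKM, at 1.19 and 11.96 FPKM, and of the Dlx2+/Dcx+ cells 2 of 9, at 40.6 and 1.92 FPKM. *Slc16a1*, the lactate transporter MCT1, which is found in endothelium and in oligodendrocytes, was above 1 FPKM in 7 of 7 Gfap+ cells (3.80 to 480 FPKM), 2 of 6 Prom1+ cells and 1 of 9 Dlx2+/Dcx+ cells. Its tissue log2 fold change was 0.39 (limma adjusted p = 0.210), with samples that did not overlap between ages.

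**Figure D5:**
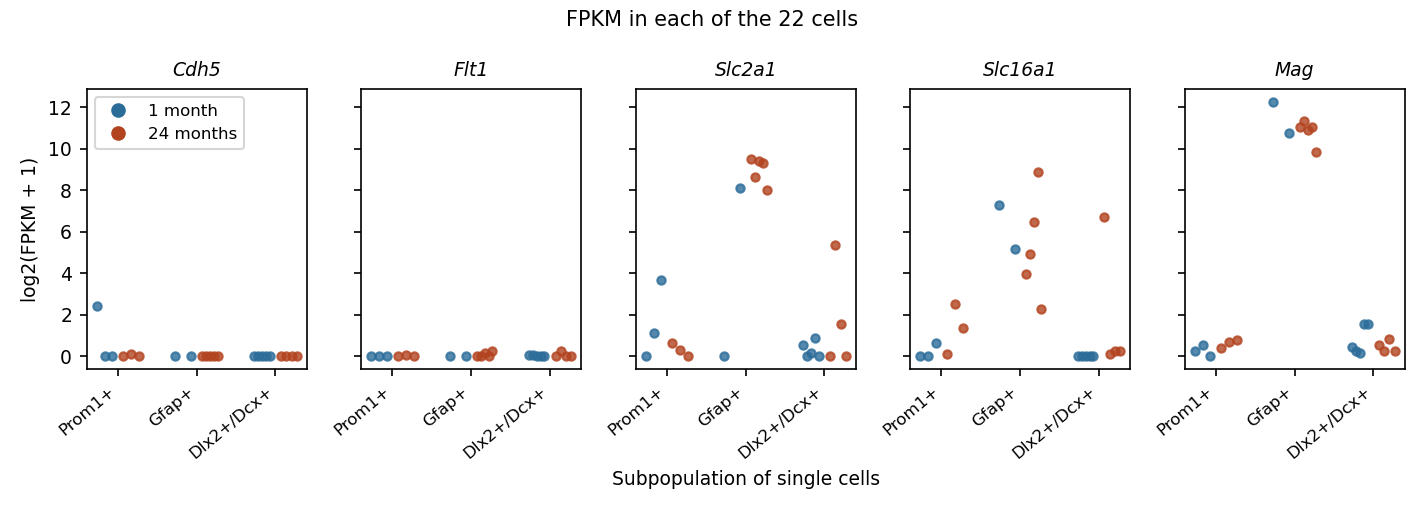
Level in each of the 22 cells as log2(FPKM + 1), by subpopulation, with cells of 1 month in blue and of 24 months in orange, for *Cdh5*, *Flt1*, *Slc2a1*, *Slc16a1* and the oligodendrocyte gene *Mag*. *Cdh5* and *Flt1* sit at or near 0 in all but 1 cell, and *Slc2a1* reaches 257 to 738 FPKM in the 5 Gfap+ cells of 24 months.

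The promoters of *Slc2a1*, the gene with high values in cells, and of *Flt1*, which had low values above 0, are shown for reference. The sequences are from RefSeq on GRCm38.p6, run from 250 bases before to 50 after the start of the gene, and are written 5′ to 3′ on the strand of the gene. *Flt1* is at chr5:147725962-147726261 (minus strand) and *Slc2a1* at chr4:119108495-119108794 (plus strand). Capitals mark 2 motifs, searched on both strands. The first is an ETS motif (CNGGAAG, stricter than the GGAA core), of a family of transcription factors that acts in endothelium. The second is a GC box (GGGCGG).
Flt1: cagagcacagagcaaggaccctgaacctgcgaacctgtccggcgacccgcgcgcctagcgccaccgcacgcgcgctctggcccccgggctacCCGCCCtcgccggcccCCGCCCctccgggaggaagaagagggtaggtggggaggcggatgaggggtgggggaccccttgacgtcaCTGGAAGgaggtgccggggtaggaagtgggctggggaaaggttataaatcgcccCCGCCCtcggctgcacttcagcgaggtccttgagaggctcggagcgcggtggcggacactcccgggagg
Slc2a1: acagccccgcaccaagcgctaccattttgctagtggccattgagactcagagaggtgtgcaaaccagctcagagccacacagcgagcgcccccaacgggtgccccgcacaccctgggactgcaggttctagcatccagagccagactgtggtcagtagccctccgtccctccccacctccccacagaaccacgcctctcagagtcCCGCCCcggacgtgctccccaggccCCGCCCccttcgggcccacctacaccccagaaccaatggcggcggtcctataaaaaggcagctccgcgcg

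An entry was found for 7 of the 10 genes. That of *Abcb1a*, at chr5:8566841-8567140, lies far upstream of the GENCODE start of the gene at 8660077. The ETS motif CNGGAAG was present in 1 of the 7, *Flt1*, with its first base at -73, and in 31.6% of all 27025 promoters of that length. Shorter GGAA matches, which the *Flt1* sequence also holds, were not counted. The GC box was in 4 of the 7 (3 times in *Flt1*, 2 times in *Slc2a1*) and in 35.9% of all promoters. These matches are descriptions of letters, and no data here bear on binding.

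How alike the 8 genes were to each other over the tissue samples was not tested. In the second sample of 18 months *Pecam1*, *Tek*, *Esam* and *Slco1a4* had their lowest value of the 6 samples, and *Slc2a1* its highest (67.5 FPKM). The mean standardised level of the 8 genes was highest in the first sample of 3 weeks (0.90 SD) and lowest in the second of 18 months (-0.72 SD). The 5 genes with the profile most like it, out of 12279, were *5830417I10Rik*, *Trim56*, *Snx29*, *Gm15900* and *Gm20689*, with Pearson r of 0.977 to 0.971 over 6 samples. With the age means removed they were *Rasal2*, *Ppil1*, *Mdm4*, *Gm1848* and *Arfgef1*, with r of 0.999 to 0.996. With 6 samples and 12279 genes, values of this size are a description only, and none of these similar genes is in the lists used here.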

How the data were processed

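The authors deposited FPKM values for 6 tissue samples and 22 cells, 1 column each. Their methods name HISAT2, GRCm38 and StringTie for the single-cell libraries, and versions, annotation release and the processing of the tissue are not given in the sources used here. FPKM is scaled to each sample's own total, so a change of abundant genes shifts all others. Positions and symbols came from GENCODE on GRCm38 by identifier (99.2% of tissue and 86.7% of cell identifiers matched), since the positions in the cell table differ from that annotation. Samples were grouped by the age, subpopulation and number in the GEO labels.

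The tissue values were filtered to genes reaching 1 FPKM in 3 or more of the 6 samples and transformed as log2(FPKM + 1). They were compared by age alone with limma 3.58.1 under R 4.3.3 (lmFit followed by eBayes, trend on), with Benjamini-Hochberg adjustment over all 12287 genes. The fit was tested on simulated data with changes larger than those of the members, so that test does not show its power for them. Cells were summarised with Python 3.11.15 and pandas 2.3.3. Depth was estimated from single-transcript genes, whose low values were whole multiples of 1 fragment, within 0.02, in 48.9% to 51.5% of cases. Intervals and steps limit the precision of genes near 1 FPKM.

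The members and lists were chosen with earlier results of these data known. Named besides the members are, from each vascular list, genes called or otherwise the 2 with the largest change, and, from marker lists, genes called. The 3 highest markers of each list, which the rule also named, are given in list sums only. One marker gene is not reported here and was left out of its list. *Vegfa*, *Pltp*, *Slc16a1*, *Mag*, *Mobp*, *Cnp*, *Col1a2*, *Dcx*, *Opalin* and *Actb* were named after their values were seen. Alternatives were a pseudocount of 0.1, no filter, scaling to 1000000, quantile normalization, the replicate number as a block, adjusted p and each sample left out, and for cells a limit of 0.1 FPKM, scaling of each cell and leaving out the shallowest cell.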

Additional observations from a re-analysis of the deposited data

Results flagged for a closer look

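Of 6 sets of cells of 1 gene and group of 4 to 5 cells with a range above 0, 2 held a cell far from the others by Dixon's limit. The limit is meant to flag about 1 group in 20 by chance, a rate that does not hold for values mostly listed at 0. *Slc2a1* was at 40.6 FPKM in 1 of the 4 Dlx2+/Dcx+ cells of 24 months. *Flt1* was at 0.184 FPKM in the same cell, where the other three were listed at 0, and with such zeros any value above 0 passes, so the flag carries no information.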

How the results depend on the processing

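Under 12 alternatives for each of the 8 endothelial and barrier genes, 94 of 96 values kept their direction and were not called, 2 took the other direction and 0 were called. Dropping the filter, the replicate block and adjusted p leave the log2 fold change as it is, so these settings could not turn a direction. Adjusted p could not add a call either. The 2 values with the other direction were of *Flt1*, which ranged from -0.013 to 0.46 on the log2 scale with samples left out in turn, and *Kdr*, which ranged from -0.17 to 0.020. The call rate of all genes moved more: 479 genes were called (225 higher, 254 lower), against 765 at a pseudocount of 0.1 (416 higher, 349 lower), 695 with scaling to 1000000 (384 higher, 311 lower) and 279 with adjusted p (128 higher, 151 lower). The number of cells with *Slc2a1* above 1 FPKM, 10, became 15 above 0.1 FPKM. Replicate numbers did not pair the samples (correlations of deviations -0.0963, -0.0107 and -0.098, and no sample correlated best with its own number), and with the replicate number as a block 505 genes were called. Of the list medians under alternatives, 262 moved by less than the spread between samples and 13 by more. *Igf2* was short of a limit without the third sample of 18 months (log2 fold change -0.84) and, by unadjusted p, without the first or the second of 3 weeks. *Cd93* and *Lef1* were called without the third sample of 3 weeks, and *Slc38a5* without the second of 18 months or of 3 weeks. *Dcx* was called at a pseudocount of 0.1, with scaling to 1000000 and with quantile normalization, and *Col1a2* at a pseudocount of 0.1. With single samples left out, *Slc2a1* ranged from 0.30 to 0.95, *Abcb1a* from 0.13 to 0.42, *Pecam1* from -0.24 to -0.034 and *Esam* from -0.40 to -0.042. At 3 samples per age, a 2-fold change of FPKM was resolved in both directions for *Pecam1* and *Kdr* only, of the 8 genes.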
